A study of Morchella sextelata with 15 samples.

Results

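S-metolachlor and acetochlor are both chloroacetanilide herbicides. In mycelium of the morel Morchella sextelata, 528 of the 20602 transcripts measured met a rule for movement in opposite directions with them. A transcript was chosen when the highest of its mean levels with S-metolachlor, with acetochlor and in control was at least 3 FPKM (fragments scaled by transcript length and library total), when one herbicide mean was at least 2 times the control mean and the other was at most control divided by 2, and when no S-metolachlor library overlapped an acetochlor library. The 100 transcripts with the highest control means were left out, so 12172 transcripts could be chosen. Of the members, 421 met the rule as higher with S-metolachlor and lower with acetochlor (S-metolachlor-high), and 107 as higher with acetochlor and lower with S-metolachlor (acetochlor-high). In 81 of the 421, control and acetochlor were both at 0 in all libraries, so that no fall with acetochlor was measured. The S-metolachlor, acetochlor and control values chose the members, so they are described here with no test.

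RNA was sequenced from wild-type mycelium in 15 libraries, with 3 libraries in each of 5 groups. The groups were medium without herbicide (control) and medium with trifluralin, pendimethalin, S-metolachlor or acetochlor, each added at 10 times its own normal application rate, which need not be equal concentrations. The fungus was kept on potato dextrose agar for 5 days at 20 °C. The labels do not say whether the 3 libraries of a group came from separate cultures, so the p-values measure the spread between libraries, which may be technical. The library totals ranged from 22923346 to 24766457 expected counts.

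Chloroacetanilides are taken up by seedlings of weeds and block the elongases that make very-long-chain fatty acids in plants. Both molecules are anilines that carry a chloroacetyl group, and the alkoxyalkyl chain on their nitrogen sets them apart. Trifluralin and pendimethalin are dinitroanilines, which bind plant tubulin and block microtubule assembly. Their libraries took no part in choosing the members.

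The files give row names in the form of a Trinity assembly and do not pair them with genes. No row name was found among the 13182 entries of the reference annotation, so no transcript is given a gene name or a role, and mycelial marker genes could not be looked up. RNA was taken from whole mycelium, so fewer cells of a kind and less RNA per cell cannot be told apart.

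The acetochlor-high transcripts formed a visible share of the RNA. They held 2.001%, 2.14% and 2.27% of all counts in the 3 acetochlor libraries, 0.596%, 0.672% and 0.457% in the control libraries, and 0.0786%, 0.0931% and 0.114% in the S-metolachlor libraries. The libraries of the herbicides outside the rule lay on the acetochlor side or near control, with 1.68%, 1.21% and 1.37% with trifluralin and 0.926%, 0.671% and 1.27% with pendimethalin. All trifluralin libraries were above all control libraries, whereas pendimethalin replicate 2 was just under control replicate 2. The median acetochlor-high member was at 13.7 FPKM with acetochlor, 4.25 in control and 0.601 with S-metolachlor.

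**Figure D1:**
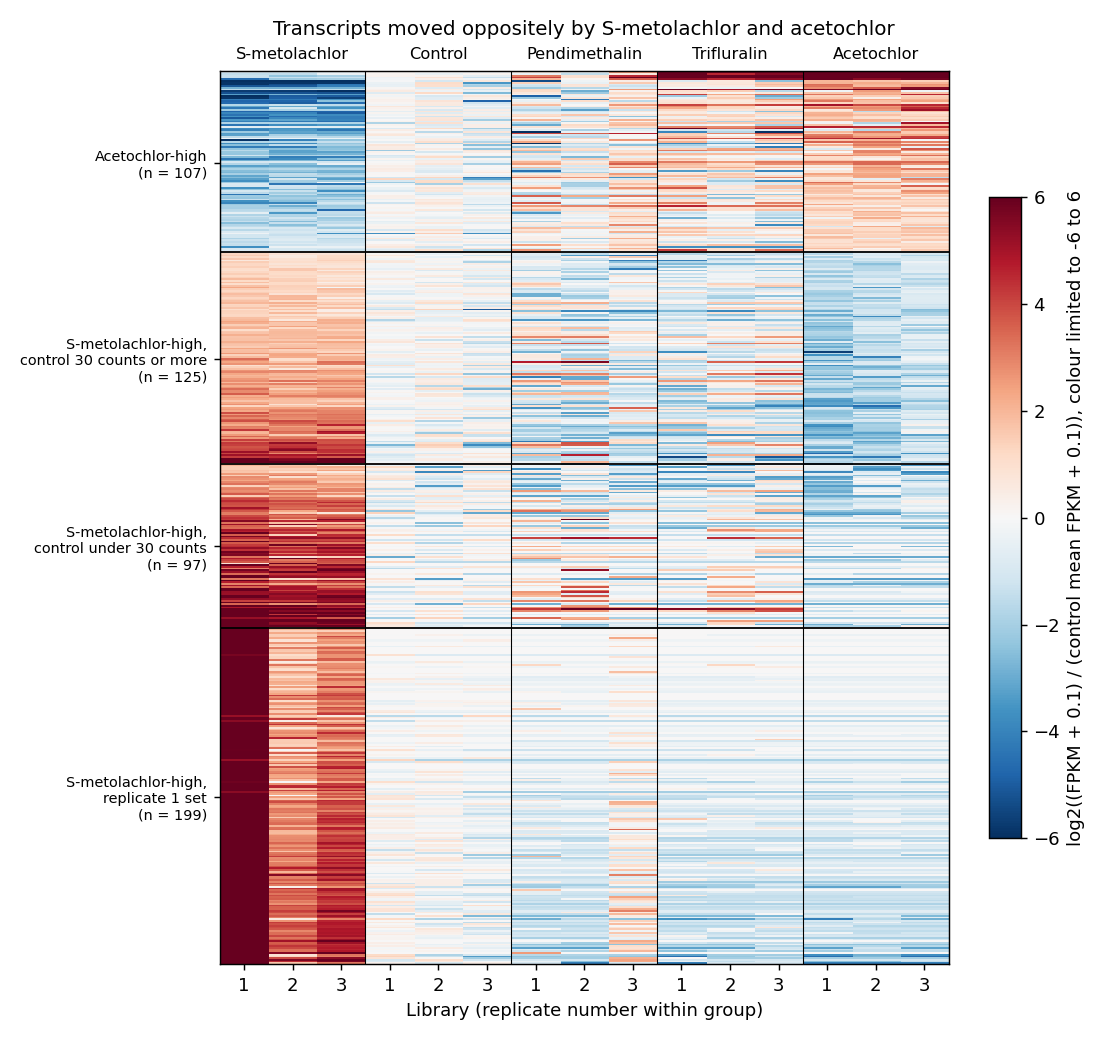
Heat map of the 528 members (rows) in the 15 libraries (columns, grouped by treatment), as log2 of FPKM + 0.1 over the control mean + 0.1, with the members divided into 107 acetochlor-high transcripts and 3 S-metolachlor-high blocks of 125, 97 and 199. In the lowest block S-metolachlor replicate 1 stands far above replicates 2 and 3, and in the uppermost block a group of transcripts is red with trifluralin as well as with acetochlor.

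The S-metolachlor-high transcripts fell into 3 blocks by their S-metolachlor replicates and their control counts. In 199 of the 421 (47.3%), S-metolachlor replicate 1 was more than 4 times both other S-metolachlor libraries (each value + 0.1 FPKM), against 270 of the 12172 transcripts that could be chosen and 1 of the 107 acetochlor-high members. This division was made after the values were seen. The ratio of replicate 1 to the higher of replicates 2 and 3 was at most 2.83 in 215 members, above 5.66 in 177 and between these in 29.

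**Figure D2:**
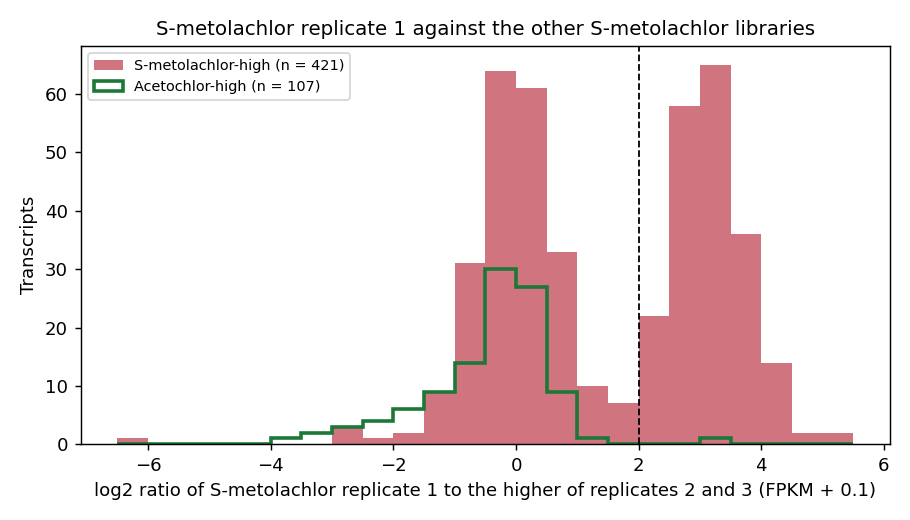
Number of members by the log2 ratio of S-metolachlor replicate 1 to the higher of S-metolachlor replicates 2 and 3 (FPKM + 0.1), for the 421 S-metolachlor-high (filled) and the 107 acetochlor-high (outlined) transcripts, with a dashed line at a ratio of 4. The S-metolachlor-high transcripts fall into a group near equal levels and a group above the line that holds 199 of them, while 1 acetochlor-high transcript lies above it.

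The 199 transcripts of this replicate 1 set summed to 122969 counts in S-metolachlor replicate 1, 5560 in replicate 2 and 13342 in replicate 3. Their sums were 825, 430 and 304 in the control libraries, 29, 76 and 35 with acetochlor, 62, 79 and 120 with trifluralin and 115, 87 and 802 with pendimethalin. All S-metolachlor libraries were above all others, and pendimethalin replicate 3 was near control replicate 1. In the median transcript of the set, S-metolachlor replicate 1 was 9.02 times replicate 3, and replicate 2 was 0.440 times replicate 3. Acetochlor was at 0 in all libraries for 157 of them and control for 54, and 97.5% of their names end in the digit 1, against 29.3% of all names. What that digit stands for is not stated, and the part of this library in the result was not tested. Chosen again without S-metolachlor replicate 1, the S-metolachlor-high transcripts numbered 262, of which 248 were among the 421.

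The other 222 S-metolachlor-high transcripts were divided by depth, also after the values were seen, into 125 with at least 30 expected counts over the 3 control libraries and 97 with fewer. Over all 421, the control was under 10 counts in 229 and at 0 FPKM in all libraries in 81, where the rule's lower condition was met by 0 against 0. Fewer counts in acetochlor than in such a control were not detectable at this depth. The 125 well-counted transcripts held 2.63%, 2.48% and 2.48% of all counts with S-metolachlor, 0.581%, 0.435% and 0.544% in control, and 0.143%, 0.218% and 0.282% with acetochlor. With trifluralin they held 0.250%, 0.352% and 0.328%, and with pendimethalin 0.381%, 0.310% and 0.453%. In these sums each of the other groups was below every S-metolachlor library, and each trifluralin library was below every control library. Abundant transcripts weigh most in them: TRINITY_DN6646_c0_g1_i4_1 alone held 97566 counts in control and 37308 with trifluralin. Over the 125 the median log2 of the trifluralin mean over control (FPKM + 0.1) was -0.51, with quartiles of -1.06 and 0.34, so not all were lower. No acetochlor-high member had a control at 0, and 13 of the 107 had under 30 control counts.

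Control lay apart from both herbicides in a part of the members only. All libraries of the higher herbicide were above all control libraries and all of the lower herbicide below them in 127 of the 421 S-metolachlor-high transcripts, in 79 of the 125 well-counted ones and in 65 of the 107 acetochlor-high transcripts. A transcript with any control library at 0 could not meet the lower condition, as in the 81 S-metolachlor-high ones with all controls at 0. The 127 was thus limited by depth, and the share over all transcripts that could be chosen is not given here. Without the requirement on control, the rule's separate folds were common: among transcripts that could be chosen, 30.6% were at least 2 times control with S-metolachlor and 11.2% were at most control divided by 2 with acetochlor, and 17.9% and 12.7% met the reverse conditions. These shares come from the contrasts that chose the members and nothing is read from them.

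The acetochlor-high transcript with the highest level was TRINITY_DN1845_c0_g1_i1_3. It was at 1655, 2172 and 1418 FPKM with acetochlor, 744, 1006 and 296 in control and 26.5, 22.4 and 28.6 with S-metolachlor. The groups did not overlap, although control replicate 3 was well under the other controls. With trifluralin it was at 1317, 1088 and 1190 FPKM, all above control, and with pendimethalin at 1010, 505 and 1226, which overlapped control. Neither passed the test against control (edgeR log2 fold change 0.66, SE 0.38, adjusted p = 0.251 for trifluralin, and 0.26, SE 0.38, adjusted p = 0.701 for pendimethalin).

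TRINITY_DN6016_c0_g1_i1_3 was next in level, at 937, 563 and 1512 FPKM with acetochlor, 78.4, 68.3 and 120 in control and 30.5, 32.3 and 29.4 with S-metolachlor. It was at 345, 155 and 177 FPKM with trifluralin and 22.0, 28.5 and 87.0 with pendimethalin. The trifluralin libraries were all above control, and of the pendimethalin libraries replicates 1 and 2 were below it. Trifluralin against control did not pass (edgeR log2 fold change 1.12, SE 0.51, adjusted p = 0.152; range over the alternatives, all tools included, 0.0867 to 0.446). Pendimethalin against control did not pass (edgeR log2 fold change -1.17, SE 0.51, adjusted p = 0.151), but without pendimethalin replicate 3 the log2 fold change was -2.10 with an adjusted p of 0.0103 (range over the alternatives 0.0103 to 0.408).

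The largest differences between the chloroacetanilides on the acetochlor-high side were in TRINITY_DN7825_c0_g1_i2_5 and TRINITY_DN7458_c0_g1_i3_3. TRINITY_DN7825_c0_g1_i2_5 was at 994, 965 and 970 FPKM with acetochlor, 31.4, 35.0 and 21.2 in control and 0.222, 0.242 and 0 with S-metolachlor. With trifluralin it was at 997, 480 and 674 FPKM and with pendimethalin at 278, 41.4 and 561. Every library of both dinitroanilines was above every control library. It rose with trifluralin (edgeR log2 fold change 4.44, SE 0.77, adjusted p = 0.00398) and with pendimethalin (3.14, SE 0.72, adjusted p = 0.0147). The pendimethalin call was lost without control replicate 1 (adjusted p = 0.0641) or control replicate 3 (adjusted p = 0.0746) and with only both groups in the edgeR fit (adjusted p = 0.0984; range over the alternatives, all tools included, 0.000119 to 0.0984). Without pendimethalin replicate 3 the log2 fold change was 2.20.

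TRINITY_DN7458_c0_g1_i3_3 separated the dinitroanilines. It was at 112, 175 and 128 FPKM with acetochlor, 0.116, 0.0955 and 0.0629 in control and 0.00303, 0 and 0.0301 with S-metolachlor. It was at 33.2, 22.3 and 53.5 FPKM with trifluralin and 0.185, 0.0484 and 1.11 with pendimethalin, so that trifluralin stood apart from control and pendimethalin overlapped it. It had the largest rise with trifluralin of the acetochlor-high members (edgeR log2 fold change 8.31, SE 0.88, adjusted p = 0.000215), and pendimethalin against control did not pass (2.004, SE 0.88, adjusted p = 0.152).

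**Figure D3:**
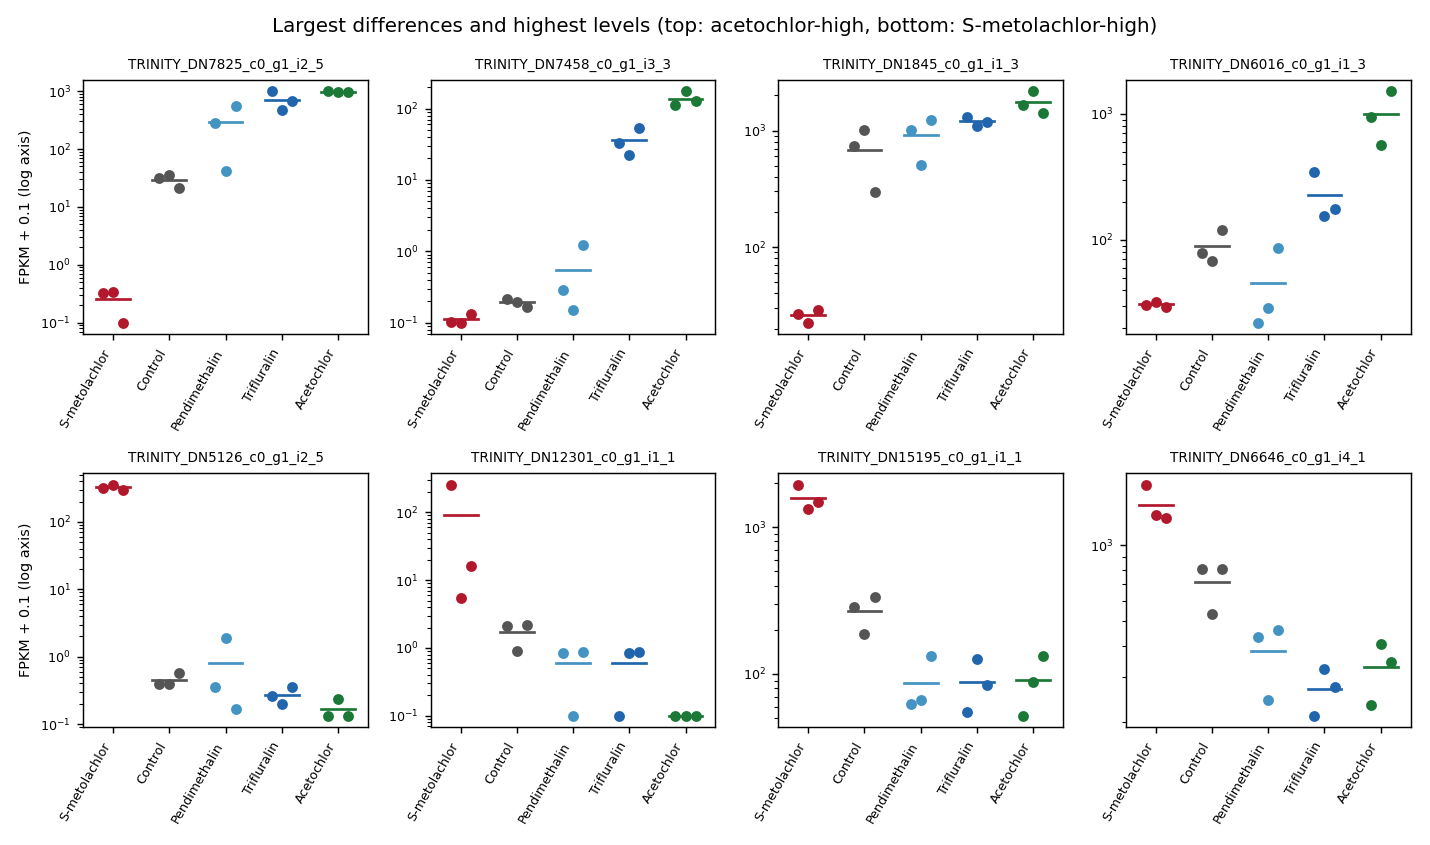
FPKM + 0.1 (log axis) in each library for the members with the largest differences and the highest levels, with acetochlor-high transcripts above and S-metolachlor-high transcripts below; points are libraries and bars are group means of 3. TRINITY_DN7458_c0_g1_i3_3 is at 22.3 to 53.5 FPKM with trifluralin and at most 1.11 with pendimethalin, and TRINITY_DN12301_c0_g1_i1_1 has 1 S-metolachlor library at 256 FPKM with the others at 5.34 and 15.8.

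On the S-metolachlor-high side, TRINITY_DN5126_c0_g1_i2_5 had the largest difference. It was at 318, 358 and 297 FPKM with S-metolachlor, 0.289, 0.298 and 0.478 in control and 0.0324, 0.135 and 0.0325 with acetochlor. It was at 0.164, 0.0970 and 0.261 FPKM with trifluralin and 0.258, 1.77 and 0.0646 with pendimethalin. Only with S-metolachlor, of the 5 groups, was any library above 2 FPKM, and neither dinitroaniline passed the test against control (edgeR adjusted p = 0.382 and 0.581). TRINITY_DN12301_c0_g1_i1_1, the next, belongs to the replicate 1 set, at 256, 5.34 and 15.8 FPKM with S-metolachlor, 1.98, 0.817 and 2.09 in control and 0 in all acetochlor libraries.

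The highest levels on this side were in TRINITY_DN15195_c0_g1_i1_1 and TRINITY_DN6646_c0_g1_i4_1. TRINITY_DN15195_c0_g1_i1_1 was at 1949, 1321 and 1486 FPKM with S-metolachlor, 287, 188 and 334 in control and 51.8, 88.4 and 132 with acetochlor. It was at 55.0, 126 and 84.2 FPKM with trifluralin and 62.8, 66.4 and 132 with pendimethalin. All 9 libraries of the other herbicides were below every control library, and their levels overlapped each other. It fell with trifluralin (edgeR log2 fold change -1.84, SE 0.42, adjusted p = 0.0142) and with pendimethalin (-1.85, SE 0.42, adjusted p = 0.0138). The edgeR trifluralin call was lost without trifluralin replicate 3 (adjusted p = 0.0637) or control replicate 3 (adjusted p = 0.0614; range over the alternatives 0.000304 to 0.0637). The edgeR pendimethalin call was lost with only both groups in the fit (adjusted p = 0.0778) and without pendimethalin replicate 1 (0.0575), pendimethalin replicate 2 (0.0629) or control replicate 3 (0.0562), within a range of 0.000271 to 0.0778.

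TRINITY_DN6646_c0_g1_i4_1 was at 1735, 1309 and 1274 FPKM with S-metolachlor, 803, 533 and 802 in control and 233, 408 and 344 with acetochlor. It was at 211, 324 and 275 FPKM with trifluralin and 434, 245 and 463 with pendimethalin. All libraries with trifluralin and with pendimethalin were below all controls. The fall with trifluralin passed (edgeR log2 fold change -1.62, SE 0.31, adjusted p = 0.00658), also under every alternative run, with an adjusted p of at most 0.0337. The fall with pendimethalin passed (-1.13, SE 0.30, adjusted p = 0.0293) but was lost with a replicate block (adjusted p = 0.0518), with only both groups in the fit (0.128), in each limma fit (0.0532 to 0.0732) and without pendimethalin replicate 1 (0.0678), pendimethalin replicate 2 (0.114), control replicate 1 (0.0989) or control replicate 3 (0.103), within a range of 0.00353 to 0.128.

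Trifluralin was compared with control over all tested transcripts, and the members were then counted. Of the 107 acetochlor-high transcripts, 106 passed the filter on low counts, 22 rose and 3 fell (edgeR adjusted p under 0.05), where 7.68% of the 17555 transcripts tested rose and 7% fell. The rises ranged from 1.18 to 8.31 on the log2 scale, and the median log2 fold change was 0.64 over the 106 and -0.01 over all tested. All 25 called members had libraries that did not overlap between trifluralin and control, as did 97.4% of all called transcripts and 37.4% of all tested. Of the 125 well-counted S-metolachlor-high transcripts, which all passed the filter, 2 rose and 22 fell, with a median of -0.76, and 23 of these 24 did not overlap. Control libraries entered both the rule and this comparison, so these counts are a description. In 45.8% of the acetochlor-high transcripts the trifluralin mean was at least 2-fold above control (FPKM + 0.1) and in 10.3% at least 2-fold below, where 14.3% and 11.6% of the transcripts that could be chosen were.

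The counts of calls depended on single libraries, among the members as among all transcripts. Over all members 51 of 460 tested (11.1%) were called with trifluralin, where 14.7% of all tested were, and 26 without trifluralin replicate 3, 29 without control replicate 1 and 28 without control replicate 3. Over all transcripts the calls went from 2578 to 884, 944 and 918 in the same fits. The acetochlor-high rises numbered 16 to 22 and the falls of well-counted S-metolachlor-high transcripts 8 to 22 when libraries were left out in turn. The other S-metolachlor-high transcripts had too few counts in these groups for a count of calls to be read: with only trifluralin and control in the fit, 6 of the 97 with few control counts and 3 of the 199 of the replicate 1 set passed the filter. With all 15 libraries in the fit 94 and 135 passed, and a missing call there says nothing about a difference.

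The acetochlor-high member with the largest fall with trifluralin was TRINITY_DN8651_c0_g1_i1_2. It was at 0 in all trifluralin libraries, 1.89, 0.435 and 1.17 FPKM in control, 1.27, 1.24 and 1.77 with pendimethalin and 2.96, 3.59 and 2.95 with acetochlor. Trifluralin stood apart from all of these. With S-metolachlor the transcript was at 0.000247, 0.885 and 0.858 FPKM, so that replicate 1 was also near 0. Its control counts summed to 27.1, and a floor of 3 fragments over the trifluralin group was taken as 10.0 expected counts for this row. Against that floor the transcript was at least 3.12-fold lower with trifluralin after TMM scaling and 2.70-fold without, a bound that covers counting error only. The call (edgeR adjusted p = 0.0162) was lost without trifluralin replicate 3 (0.0592) or control replicate 1 (0.0569), within a range of 0.000591 to 0.0592.

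The S-metolachlor-high member with the largest fall with trifluralin was TRINITY_DN6896_c0_g1_i2_1. It was at 0.0523, 0.000353 and 0.0189 FPKM with trifluralin, 0.679, 2.68 and 0.447 in control, 7.89, 3.93 and 4.64 with S-metolachlor and 0.0193, 0.119 and 0.0490 with acetochlor. Control replicate 2 was the highest control, and trifluralin and control did not overlap. Summed counts were 135 in control and 2.56 with trifluralin, a ratio of 52.6 as deposited. After TMM scaling of the library sizes the ratio was 60.9, with an exact 95% counting interval of 17.4 to 256 (edgeR adjusted p = 0.00301). Without control replicate 2 the edgeR log2 fold change moved from -5.46 to -4.42, and without trifluralin replicate 1 to -6.33, both still called (range of adjusted p over the alternatives 7.02e-06 to 0.0406).

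The largest rise on that side, with trifluralin and with pendimethalin, was in TRINITY_DN1085_c0_g1_i1_1. It was at 0 in every control and acetochlor library, 7.04, 7.87 and 6.63 FPKM with S-metolachlor, 4.76, 4.13 and 1.80 with trifluralin and 1.84, 7.22 and 10.1 with pendimethalin. It thus was detected with 3 herbicides and listed at 0 with acetochlor. A floor of 3 fragments over the control group was taken as 40.0 expected counts for this row. Against that floor the transcript was, after TMM scaling, at least 1.70-fold higher with trifluralin (edgeR adjusted p = 0.00673) and at least 3.03-fold higher with pendimethalin (edgeR adjusted p = 0.00422). The pendimethalin call was lost with only both groups in the edgeR fit (adjusted p = 0.0692, within a range of 1.02e-06 to 0.0692).

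Pendimethalin was compared with control in the same fit and shared its control libraries with the trifluralin comparison. Of the 106 acetochlor-high transcripts tested, 12 rose and 1 fell (edgeR adjusted p under 0.05), where 7.35% of all tested rose and 5.54% fell. Of the 125 well-counted S-metolachlor-high transcripts 1 rose and 18 fell. When libraries were left out in turn, the acetochlor-high rises numbered 4 to 13, the well-counted S-metolachlor-high rises 0 to 9 and their falls 6 to 22. The 9 rises came without pendimethalin replicate 3 and the 6 falls without pendimethalin replicate 2. With only pendimethalin and control in the fit, 9 of the 97 with few control counts and 7 of the 199 of the replicate 1 set passed the filter, so their calls are not counted here. Libraries did not overlap in 10 of the 13 called acetochlor-high members and in 17 of the 19 called well-counted ones, where 91.4% of all called and 29.7% of all tested transcripts did not overlap. In 32.7% of the acetochlor-high transcripts the pendimethalin mean was at least 2-fold above control, against 14.8% of those that could be chosen, and in 9.35% at least 2-fold below, against 8.82%.

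Pendimethalin replicate 3 differed from the other pendimethalin libraries in these transcripts. The median log2 fold change of the acetochlor-high members was 0.17 with all libraries and -0.15 without pendimethalin replicate 3, so its direction rested on that library. Over all members 36 of 460 tested (7.83%) were called with pendimethalin, where 12.9% of all tested were. The count was 52 without pendimethalin replicate 3, 21 without pendimethalin replicate 1, 20 without pendimethalin replicate 2, 14 without control replicate 1 and 14 without control replicate 3. Over all transcripts tested the calls changed in the same directions, from 2263 to 3046, 1299, 1089, 795 and 886 in these fits. With only pendimethalin and control in the fit 6 members were called, and 389 of all transcripts tested.

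TRINITY_DN4431_c0_g1_i2_1 had the largest rise with pendimethalin of the acetochlor-high members. It was at 5.97, 0.594 and 21.8 FPKM with pendimethalin, 0.189, 0.548 and 0.0373 in control, 58.1, 49.5 and 97.3 with trifluralin, 55.8, 62.1 and 60.4 with acetochlor and 0.0381, 0.0375 and 0.0382 with S-metolachlor. Pendimethalin replicate 2 was just above the highest control library. The edgeR log2 fold change was 5.03 (SE 1.02, adjusted p = 0.00889), and 3.42 without pendimethalin replicate 3 and 6.14 without control replicate 2. The edgeR call was lost without control replicate 1 (adjusted p = 0.0507) and with only both groups in the fit (0.108, within a range of 2.53e-06 to 0.108).

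TRINITY_DN7264_c0_g1_i3_3 had the largest fall with pendimethalin of the S-metolachlor-high members. It was at 0.0235, 0.0230 and 0.0943 FPKM with pendimethalin, 0.294, 0.792 and 2.57 in control, 5.04, 1.93 and 5.91 with S-metolachlor and 0.139, 0.310 and 0.848 with acetochlor. Pendimethalin did not overlap control, and acetochlor and control overlapped. The edgeR log2 fold change was -4.91 (SE 1.04, adjusted p = 0.0104), -3.64 without control replicate 3 and -5.89 without pendimethalin replicate 3. The call was lost with only both groups in the fit (adjusted p = 0.0740) and in limma with 1 FPKM added (0.103, and 0.109 with no filter, in a range of 3.1e-05 to 0.109).

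Pendimethalin against trifluralin is the only tested comparison in which neither group compared was used by the rule. The spread of each transcript was still estimated from all 15 libraries, 9 of which the rule used, so the calls are not independent of the choice. With only both groups in the edgeR fit, 0 of 217 members and 0 of 14644 transcripts tested were called. The 7 members called were all acetochlor-high and all lower with pendimethalin (edgeR adjusted p under 0.05), where 0.41% of the 17555 tested were called, 0.0684% higher and 0.342% lower. Among the 125 well-counted S-metolachlor-high transcripts none was called by edgeR, and DESeq2 and limma with 1 FPKM added each called 1. The unadjusted edgeR p was under 0.05 in 10 of these 125, in 33 of the 106 acetochlor-high transcripts tested and in 1259 of the 17555. The rest of the S-metolachlor-high side had too few counts with either dinitroaniline to be read: with only both groups in the fit, 13 of the 97 with few control counts and 0 of the replicate 1 set passed the filter. Whether the sides of the rule differ in this comparison was not tested. The median log2 difference of pendimethalin from trifluralin was -0.28 over the 106 acetochlor-high transcripts tested, 0.10 over the 125 well-counted S-metolachlor-high ones and 0.04 over all tested. The median half-width of the 95% interval was 1.49 over the acetochlor-high transcripts, 1.42 over the 125 and 0.94 over all tested. In 6 of the acetochlor-high ones and in 8 of the 125 the whole interval lay within 2-fold, so a missing call does not show equal levels. That share over all tested is not given here.

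TRINITY_DN7711_c0_g1_i1_2 had the largest fall. It was at 18.9, 6.53 and 12.7 FPKM with trifluralin, 0.110, 0 and 0.333 with pendimethalin, 0.212, 0.115 and 0.214 in control and 104, 37.9 and 138 with acetochlor. Pendimethalin overlapped control, and trifluralin stood apart from both. The log2 fold change of pendimethalin against trifluralin was -6.39 (SE 0.81, edgeR adjusted p = 0.00328) and -7.75 without pendimethalin replicate 3. That of TRINITY_DN7458_c0_g1_i3_3 was -6.30 (SE 0.76, edgeR adjusted p = 0.00251) and -8.25 without pendimethalin replicate 3. Both calls held in 13 of 14 alternatives and were lost with only both groups in the edgeR fit (adjusted p = 0.285 and 0.302), where none of all transcripts tested was called.

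The other 5 of these transcripts, named after their values were seen because they were called, were TRINITY_DN4358_c0_g1_i1_3, TRINITY_DN7089_c0_g1_i3_2, TRINITY_DN7022_c1_g1_i1_5, TRINITY_DN10451_c0_g1_i1_5 and TRINITY_DN9530_c0_g1_i1_4. TRINITY_DN4358_c0_g1_i1_3 was at 371, 65.0 and 165 FPKM with trifluralin and 5.13, 5.83 and 1.79 with pendimethalin, and its acetochlor mean of 16.4 FPKM was below all trifluralin libraries. TRINITY_DN10451_c0_g1_i1_5 was at 1133, 335 and 679 FPKM with trifluralin and 80.7, 108 and 113 with pendimethalin, where control was at 76.2, 67.9 and 54.8. TRINITY_DN9530_c0_g1_i1_4 had the smallest difference, at 96.7, 78.0 and 80.9 FPKM with trifluralin and 32.3, 27.0 and 42.6 with pendimethalin (log2 fold change -1.33, SE 0.25, edgeR adjusted p = 0.0400). In each of the 7 the trifluralin and pendimethalin libraries did not overlap, as in all 72 transcripts called and 9.74% of those tested.

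These 5 calls were lost in more of the alternatives. The call of TRINITY_DN10451_c0_g1_i1_5 held in 6 of 14 alternatives, those of TRINITY_DN7022_c1_g1_i1_5 and TRINITY_DN9530_c0_g1_i1_4 in 7, that of TRINITY_DN4358_c0_g1_i1_3 in 10 and that of TRINITY_DN7089_c0_g1_i3_2 in 12. Of the 7 calls over all members, 2 were left without pendimethalin replicate 1, and 4 members were called without pendimethalin replicate 2 and 4 without trifluralin replicate 3. All 7 transcripts were also called higher with trifluralin than in control, but the same trifluralin libraries set them apart from pendimethalin and the control values entered the rule, so this is a description and supports nothing.

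**Figure D4:**
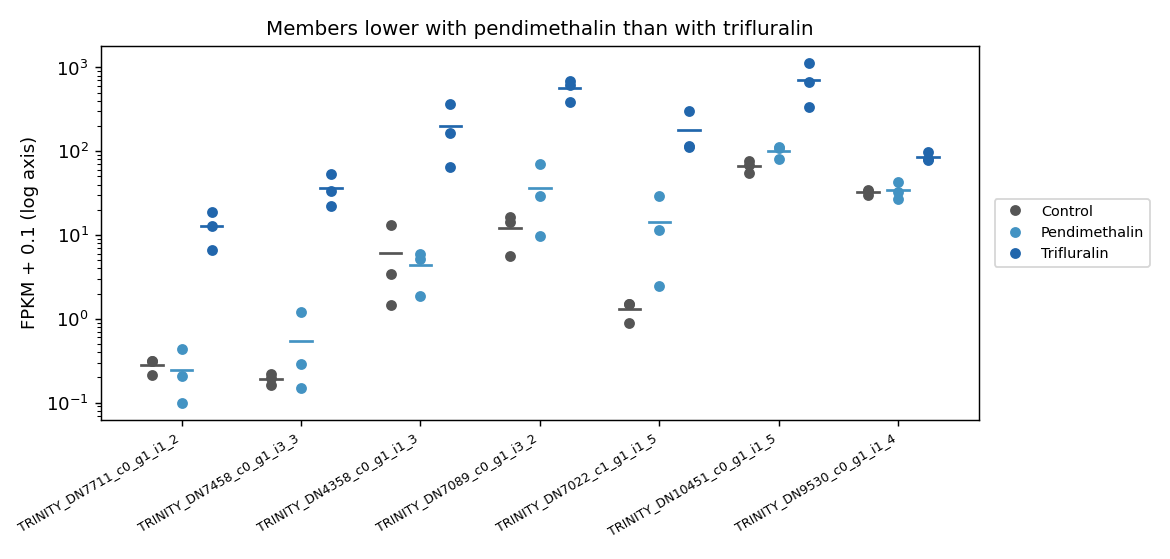
FPKM + 0.1 (log axis) in the control, pendimethalin and trifluralin libraries for the 7 members called lower with pendimethalin than with trifluralin; points are libraries and bars are means of 3. The pendimethalin points overlap the control points in all but TRINITY_DN7022_c1_g1_i1_5 and TRINITY_DN10451_c0_g1_i1_5, and in every transcript the trifluralin points lie above both.

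Levels of some acetochlor-high transcripts ran in parallel over the libraries. Pairs were compared by Pearson's r of log2(FPKM + 0.1) over the 15 libraries, which share the group differences that chose the members, so r is a description and the limit of 0.98 was set after the values were seen. Of 5671 pairs 13 reached 0.98, and they joined 15 transcripts into 5 groups, the largest with 6 transcripts. Among the 125 well-counted S-metolachlor-high transcripts 4 of 7750 pairs did, the highest at 0.997 for TRINITY_DN7931_c0_g1_i4_5 and TRINITY_DN8029_c0_g1_i8_3.

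The 6 transcripts had means of 59.4 to 647 FPKM with acetochlor, 68.3 to 566 with trifluralin, 9.44 to 71.3 with pendimethalin, 0.258 to 17.2 in control and 0.0379 to 8.47 with S-metolachlor. TRINITY_DN7089_c0_g1_i3_2, the highest, was at 572, 681 and 689 FPKM with acetochlor, 690, 384 and 622 with trifluralin, 29.4, 9.50 and 70.0 with pendimethalin, 14.3, 16.2 and 5.49 in control and 3.94, 4.49 and 4.29 with S-metolachlor. In each of the 6, pendimethalin replicate 2 was the lowest pendimethalin library and replicate 3 the highest. All 6 rose with trifluralin (edgeR log2 fold changes 2.78 to 7.88), in libraries that also entered the r by which they were grouped. With pendimethalin 5 were called, of which TRINITY_DN1303_c0_g1_i2_5 (edgeR adjusted p = 0.0493) held in 2 of 14 alternatives, with adjusted p from 0.00807 to 0.225, and TRINITY_DN6021_c0_g2_i2_2 (edgeR adjusted p = 0.0458) in 4, from 0.0102 to 0.185. Without pendimethalin replicate 3 their log2 fold changes against control were 1.12 and 1.02.

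**Figure D5:**
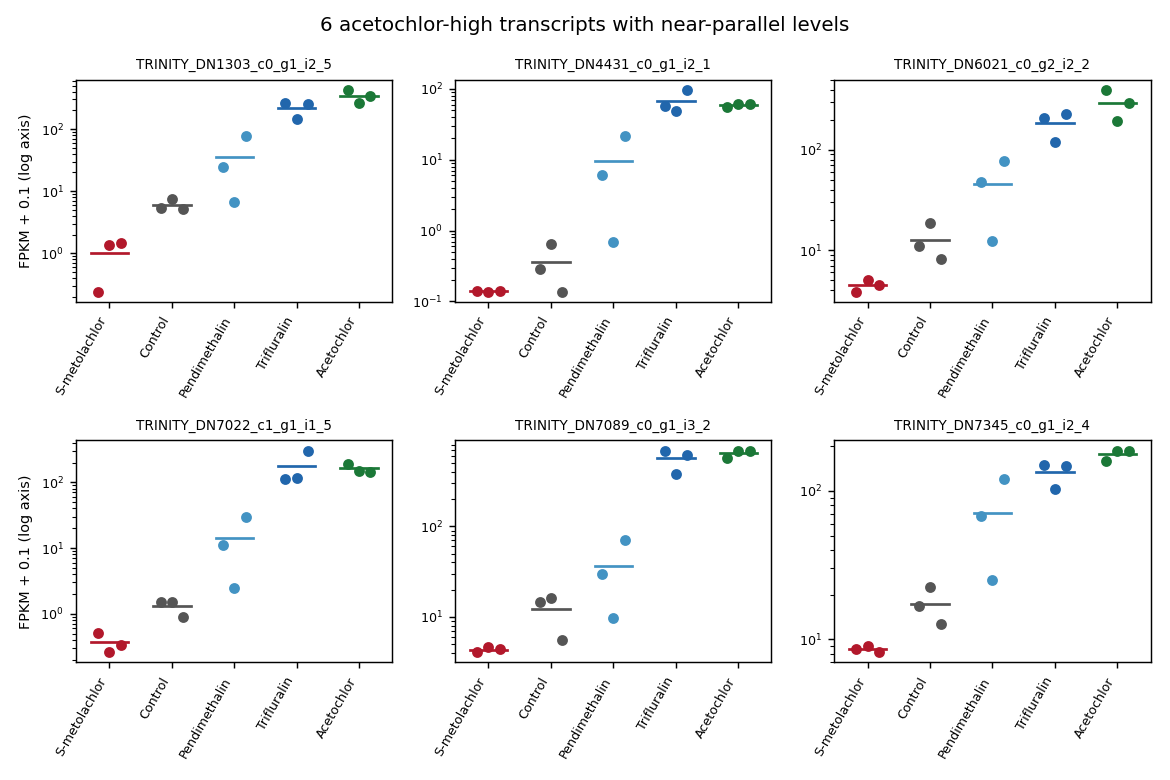
FPKM + 0.1 (log axis) in each library for the 6 acetochlor-high transcripts whose levels ran in parallel; points are libraries and bars are group means of 3. By group means S-metolachlor is lowest, control next, then pendimethalin, and trifluralin near acetochlor, with means of 68.3 to 566 and 59.4 to 647 FPKM. Pendimethalin points spread over a wide range with replicate 2 lowest. That replicate lies among the control points in TRINITY_DN1303_c0_g1_i2_5, TRINITY_DN6021_c0_g2_i2_2 and TRINITY_DN7089_c0_g1_i3_2. In TRINITY_DN4431_c0_g1_i2_1 control replicate 3 is level with S-metolachlor.

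Not all acetochlor-high transcripts had this order. The means ran from S-metolachlor through control and pendimethalin up to trifluralin in 38 of the 107. The trifluralin mean was above the acetochlor mean in 17, between control and acetochlor in 59, between S-metolachlor and control in 25 and below S-metolachlor in 6. The pendimethalin mean was above acetochlor in 15, between control and acetochlor in 57 and between S-metolachlor and control in 35. For the 125 well-counted S-metolachlor-high transcripts the trifluralin mean was above S-metolachlor in 4, between control and S-metolachlor in 39, between acetochlor and control in 63 and below acetochlor in 19.

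Members of both directions shared 2 Trinity genes (row names alike once the isoform number and the last digit are dropped). The meaning of the last digit is not stated, so rows grouped this way need not be isoforms of the same gene. In TRINITY_DN6896_c0_g1 the row i4_5 was at 120, 232 and 822 FPKM with acetochlor, 19.1, 10.2 and 23.7 in control and 2.43, 2.22 and 2.48 with S-metolachlor, whereas the row i2_1, described above, was S-metolachlor-high. A further row, i1_4, was at 86.4, 83.7 and 120 FPKM with acetochlor, 92.9, 108 and 114 in control and 137, 137 and 146 with S-metolachlor, and met neither condition. Row i4_3, which differs from i4_5 in name by the last digit only, was not a member. The rows under this name thus had different patterns. In TRINITY_DN12012_c0_g1 the S-metolachlor-high row, i1_1, was at 36.0, 2.16 and 5.47 FPKM with S-metolachlor and belongs to the replicate 1 set. The acetochlor-high row, i1_2, differs from it in name by the last digit only.

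Many members shared their Trinity gene, as grouped here, with other rows. The grouping ignores the last digit of the name, so a sum need not be that of isoforms of the same gene. For 61 acetochlor-high transcripts the Trinity gene had another row, and the summed levels met the folds and the lack of overlap in the same direction for 11 of these 61. In the replicate 1 set 106 had another row and 8 sums did so. How the authors' counting treated reads that fit several isoforms or near-identical transcripts is not known, which leaves the level of a single row uncertain.

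Close to the thresholds, TRINITY_DN3929_c0_g1_i3_2 was just inside on the acetochlor-high side, with means of 26.3 FPKM with acetochlor, 13.1 in control and 3.82 with S-metolachlor, and TRINITY_DN3803_c0_g1_i2_5 just outside, with 166, 83.5 and 29.6. On the S-metolachlor-high side TRINITY_DN15882_c0_g1_i1_1 was just inside, with 3.54 FPKM with S-metolachlor, 0.864 in control and 0.430 with acetochlor, and TRINITY_DN470_c0_g1_i2_3 just outside, with 3.90, 1.91 and 0.960. The ratios of acetochlor to control were 2.01 and 1.99 in the first pair and 0.497 and 0.502 in the second.

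The members were also chosen again without 1 library at a time, and the left-out library was then set against the choice. The folds already required a wide gap between both herbicides, so a high share was close to given. No share over all transcripts that could be chosen is given here, so the shares are a description and support nothing. A left-out S-metolachlor or acetochlor library lay on the labelled side of all libraries of the other chloroacetanilide in 86.2% to 100% of the transcripts chosen without it. The lowest share was that of S-metolachlor replicate 2 among 625 S-metolachlor-high transcripts, and it was 96.2% with the replicate 1 set not counted. A left-out control library lay strictly between all libraries of both herbicides, a stricter condition, in 43.9% to 80.9%. That share was lowest for control replicate 3 on the S-metolachlor-high side and highest for control replicate 1 on the acetochlor-high side.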

How the data were processed

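Gene expression was measured by RNA-seq in 15 mycelium libraries. The authors deposited expected counts, which are estimated fragments per transcript and mostly not whole, with no scaling to a common total. They also deposited FPKM for the same 20602 transcripts, as scaled by the authors to transcript length and library total. The tools listed in the submitters' processing notes are Bowtie2, Trimmomatic and DESeq, with mm10, which is a mouse genome, as the build, although the row names have the form of a Trinity assembly. The counting program is not given in the sources used.

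The rule and the library levels used FPKM as deposited. Expected counts were rounded and filtered with filterByExpr (minimum count 10, minimum total 15), which left 17555 transcripts. They were scaled by TMM and fitted with the quasi-likelihood test of edgeR 4.0.16 in R 4.3.3, with all 15 libraries and 1 mean per group. Benjamini-Hochberg adjustment ran over all 17555, and an adjusted p under 0.05 was called. The test was also run on counts simulated with the spread estimated here. That run cannot show how the test handles an outlying library, and its outcome is not given here. The alternatives used limma 3.58.1 on log2(FPKM + 1) or log2(FPKM + 0.1), DESeq2 1.42.0, other scaling and filters, only both groups compared, a replicate block, and each replicate left out. A floor of 3 fragments over the group, converted to expected counts separately for each row, stands in for 0 counts. Intervals and floors cover counting error only.

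Named members are, per direction, the 2 with the largest difference between S-metolachlor and acetochlor, the 2 with the highest level, those nearest the thresholds, per contrast the largest rise and fall among called members without overlap, and Trinity genes holding both directions. The members and lists were chosen with earlier results of these data known.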

Additional observations from a re-analysis of the deposited data

How the results depend on the processing

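The number of members depended on the rule's settings. The S-metolachlor-high transcripts, 421 as reported, numbered 1036 with a minimum of 1 FPKM and 154 with 10 FPKM, 662 at 1.5-fold, 127 with no overlap with control required as well, and 244 with FPKM summed per Trinity gene. They numbered 222 with the replicate 1 set left out and 136 with at least 30 control counts, both chosen after seeing the data, and 262 to 625 with 1 library left out. The acetochlor-high transcripts, 107 as reported, numbered 172 and 62 with those minimum levels, 267 at 1.5-fold, 50 at 3-fold, 65 with no overlap with control, 59 with sums per Trinity gene, and 110 to 132 with 1 library left out. The sums per Trinity gene ignore the last digit of the row name, so they need not be sums of isoforms.

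Members called with trifluralin against control (51) numbered 83 by DESeq2 and 26 to 58 with 1 library left out. Members called with pendimethalin against control (36) numbered 6 with only both groups in the fit, 62 by DESeq2 and 14 to 52 with 1 library left out. Members called with pendimethalin against trifluralin (7) numbered 0 with only both groups in the fit, 13 by limma on log2(FPKM + 1) with and without a filter, 17 by DESeq2 and 2 to 9 with 1 library left out. The causes were not tested. On log2(FPKM + 0.1), with no TMM scaling, the median over all transcripts tested was 0.11 with trifluralin and 0.15 with pendimethalin against control, where it was -0.01 and 0.02 in edgeR. Of 658 recomputed values of single named members, 607 kept direction and side of the threshold, 41 lost the call, 10 gained it and 0 reversed. Of 128 recomputed counts of members beyond 2-fold, 22 moved.

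With the replicate number as a block, 44 members were called with trifluralin, 28 with pendimethalin and 6 with pendimethalin against trifluralin. The numbers do not pair the libraries: deviations of same-numbered libraries correlated at -0.439 to 0.399 across transcripts.

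Limits are the 3 libraries per group, the depth of rows with few control counts, S-metolachlor replicate 1, and row names with no gene attached.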
